A study of Mus musculus with 12 samples.

Results

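Oxidative phosphorylation is the last stage of respiration, in which electrons from NADH and succinate pass through complexes I to IV of the inner mitochondrial membrane and the proton gradient they build drives ATP synthase, complex V. Most subunits are encoded in the nucleus and imported, and a small remainder is encoded by mitochondrial DNA. Renal tubule cells use this ATP for sodium transport. The genes described here are the nuclear genes of these complexes, chosen by symbol: names that begin with Nduf, Uqcr, Cox4 to Cox8 or Atp5, the succinate dehydrogenase genes Sdha to Sdhd, and Cyc1. The name pattern took 102 of the 52092 rows used, and 8 names that contain -ps, which marks pseudogenes, were left out. This gave 94 rows with 93 symbols, since Atp5o stood in the table on 2 rows. By complex, 38 rows belonged to complex I (NADH dehydrogenase), 8 to its assembly factors of the Ndufaf series, 4 to complex II (succinate dehydrogenase), 9 to complex III (cytochrome bc1), 18 to complex IV (cytochrome c oxidase) and 17 to complex V.

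RNA was sequenced from mpkCCD cells, a mouse cell line of cortical collecting duct principal cells. Nfat5 encodes a transcription factor of the response to hypertonicity. Scr cells had received a scramble gRNA with no target, and Nfat5-KO cells were the 2 clones N1 and N3, made with CRISPR/Cas9. Both were kept for 5 days at 300 mosmol/kg (Scr_300, 2 libraries; Nfat5-KO_300, 4 libraries) or at 600 mosmol/kg, reached with 100 mM NaCl and 100 mM urea (Scr_600, 2 libraries; Nfat5-KO_600, 4 libraries). The deletion therefore cannot be told apart from the history of the clones, and the 2 clones stand together in 1 value.

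The deposited table gave 1 FPKM value (fragments per kilobase of gene scaled to the mapped fragments) per gene and group. No spread between libraries and no read depth could be had from it, so nothing below carries a test, and "higher" and "lower" describe these 4 values alone. Fewer cells and less RNA per cell cannot be told apart in such bulk samples. The target, Nfat5, stood at 5.61 FPKM in Scr_300, 7.93 in Scr_600, 3.47 in Nfat5-KO_300 and 6.88 in Nfat5-KO_600, so its RNA was present in the knockout groups, and gene-level values do not show whether the deletion lies in it. Of 8 markers of kidney and simple epithelium, all reached 0.5 FPKM, led by Krt18 at 738, 535, 659 and 469 FPKM in the same order. Of 12 principal cell markers 5 did so: Gata3, Scnn1a, Aqp3, Hsd11b2 and Kcnj1. The defining water channel Aqp2 was at 0 to 0.245 FPKM and the vasopressin receptor Avpr2 at 0 to 0.0193, so these 2 markers were near absent. At 0.5 FPKM or more were 2 of 7 intercalated cell markers, 1 of 6 proximal tubule markers and 1 of 10 markers of fibroblasts, endothelium and leukocytes.

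Regulators of this gene set in other cells include NRF1, GABP (an ETS factor) and YY1, which bind short motifs near the start of many respiratory genes. Promoter windows, from 250 bases before to 50 bases after the start, were found for 74 of the 93 symbols in RefSeq (GRCm38.p6) and searched on both strands. The NRF1 core GCGCATGC stood in 12 of the 74 (16.2%), against 2.71% of all 32851 promoter windows and 7.10% of those of 5788 other genes with at least 5 FPKM. The YY1 core AAGATGGC stood in 10 (13.5%), against 2.75% and 6.32%. The ETS core CCGGAAG stood in 18 (24.3%), against 8.86% and 23.4%, so its share was close to that of other expressed genes. At least 1 of the 3 stood in 33 promoters and none in 41. The ETS and YY1 cores can overlap by the letters AAG, and the NRF1 core can be read on both strands of 1 longer site. A match is only a match of letters and was not tested for binding.

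The sequences that follow are the 200 bases before the start, 5′ to 3′ on the gene's strand, with NRF1 core letters in capitals. Atp5k and Ndufaf4 are shown because they had the lowest mean hypertonic ratios of the members with this core, Ndufa6 because it had the highest, and Cox7a1 because it is the single expressed tissue isoform of complex IV and holds none of the 3 cores.
Atp5k chr5:108434400-108434599 (- strand): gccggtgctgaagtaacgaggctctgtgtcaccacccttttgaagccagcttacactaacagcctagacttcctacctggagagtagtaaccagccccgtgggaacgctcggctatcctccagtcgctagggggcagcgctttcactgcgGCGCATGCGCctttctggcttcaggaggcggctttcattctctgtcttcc
Ndufaf4 chr4:24897883-24898082 (+ strand): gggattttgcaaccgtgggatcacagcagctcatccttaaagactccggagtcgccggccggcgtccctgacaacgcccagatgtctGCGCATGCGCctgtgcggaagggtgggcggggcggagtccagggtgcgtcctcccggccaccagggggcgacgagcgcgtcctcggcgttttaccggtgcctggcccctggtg
Ndufa6 chr15:82354292-82354491 (- strand): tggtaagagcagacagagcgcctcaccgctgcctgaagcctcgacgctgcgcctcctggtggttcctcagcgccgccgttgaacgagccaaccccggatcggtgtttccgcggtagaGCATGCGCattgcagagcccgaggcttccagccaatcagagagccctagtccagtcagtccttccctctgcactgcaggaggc
Cox7a1 chr7:30183971-30184170 (+ strand): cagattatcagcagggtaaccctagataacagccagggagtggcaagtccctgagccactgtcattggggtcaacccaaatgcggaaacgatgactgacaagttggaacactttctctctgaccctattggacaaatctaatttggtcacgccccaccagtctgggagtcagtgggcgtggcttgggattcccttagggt
Atp5k, Ndufaf4 and Ndufa6 were picked by these ratios among the members with the core, so their directions give no information on it. The core was matched on both strands in Atp5k and Ndufaf4 and on the reverse strand alone in Ndufa6.

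Most members were strongly expressed. Of the 94 rows, 86 reached 0.5 FPKM in a group, and 81 to 84 of these, depending on the group, lay above the median of all expressed genes (5.603 to 5.660 FPKM). The members' own median was 52.2 FPKM in Scr_300, 47.1 in Scr_600, 47.1 in Nfat5-KO_300 and 42.1 in Nfat5-KO_600. Together they made up 2.75%, 2.63%, 2.60% and 2.69% of all FPKM in that order. Cox8a, a small subunit of complex IV, was at 553, 537, 533 and 481 FPKM, the highest member in all groups but Nfat5-KO_600, where Cox6a1 stood at 485. It was followed in Scr_300 by Atp5b, the catalytic beta subunit of ATP synthase, at 458 FPKM, Cox6a1 at 406 FPKM and Atp5f1, of the peripheral stalk, at 362 FPKM. The median level in Scr_300 was 122 FPKM for complex IV, 93.0 for complex V, 80.9 for complex III, 45.1 for complex II, 43.5 for complex I and 9.44 for the assembly factors. Complexes II and I were nearly level at 300 mosmol/kg, also in Nfat5-KO_300 (39.5 and 39.5 FPKM), and further apart at 600 mosmol/kg (43.3 and 34.8 FPKM in Scr_600, 44.2 and 34.6 in Nfat5-KO_600). These level medians can rest on different genes in each group, and complex II has only 4. Gene by gene, the median log2 ratio of 600 against 300 in Scr cells was −0.21 for complex II and −0.15 for complex I. In Nfat5-KO cells it was −0.07 and −0.17.

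**Figure D1:**
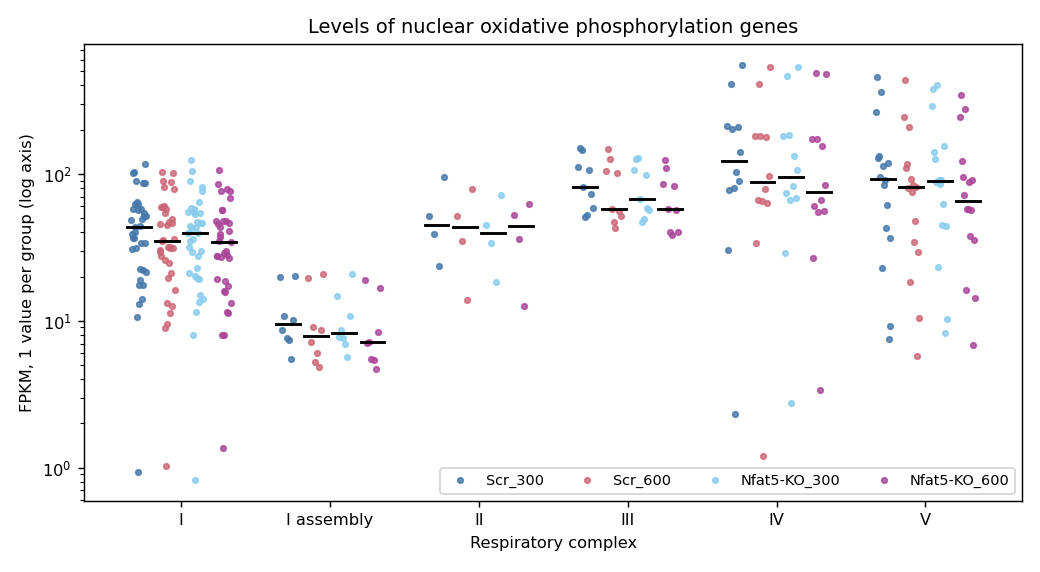
FPKM of each expressed member (log axis) by respiratory complex, 1 point per gene and group, colours for the 4 groups and black bars for medians. Complex IV and V genes reach the highest levels, the assembly factors stay between 4.70 and 20.97 FPKM, and the low outliers are Ndufb2 in complex I and Cox7a1 in complex IV.

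A few members stood far under their complex. Ndufb2, an accessory subunit of complex I, was at 0.931, 1.02, 0.824 and 1.36 FPKM, whereas the next lowest complex I gene, Ndufab1, the mitochondrial acyl carrier protein, was at 10.6, 8.94, 8.02 and 7.95 FPKM. Atp5l, subunit g of ATP synthase, was at 7.50, 5.74, 8.20 and 6.84 FPKM. These 3 genes have 5628, 6883 and 6443 bases of annotated exon, against a median of 1578 over the 92 members with 1 gene in GENCODE M21, and FPKM divides by a length that the sources used here do not give. Across 85 expressed members Spearman's rho between level and exon length was −0.36 to −0.38 in the 4 groups, as a description. The pseudogene Ndufab1-ps, no member, was listed at 18.6, 13.3, 14.8 and 14.1 FPKM, above Ndufab1 itself, so the split of reads between them is uncertain.

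The members hardly expressed were tissue or condition isoforms. Cytochrome c oxidase has subunits with alternative genes for muscle, testis, lung or low oxygen. Cox6a2, the heart and muscle form, and Cox8c, a testis form, were listed at 0 in all groups. Cox6b2, Cox7b2 and Cox8b were above 0 in 1 group each, at 0.0324 FPKM in Nfat5-KO_600, 0.0263 in Scr_600 and 0.0387 in Scr_300. Cox4i2, the lung form, reached 0.253 FPKM in Nfat5-KO_600 and 0.0375 to 0.103 in the other groups. Ndufa4l2, known as a target of hypoxia signalling, was at 0 to 0.0857 FPKM, and the second Atp5o row was at 0. Their ubiquitous partners Cox4i1, Cox6a1, Cox6b1, Cox7a2, Cox7b, Cox8a and Ndufa4 were at 55.6 FPKM or more everywhere. Cox7a1, the heart and muscle partner of Cox7a2, was the exception at 1.20 to 3.38 FPKM.

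At 600 mosmol/kg the deposited values of most members were lower than at 300 in both genotypes by modest amounts, a direction that did not hold for Nfat5-KO cells when all groups were given equal FPKM sums. In Scr cells 74 of 86 members were lower in Scr_600 than in Scr_300, while 54.6% of all 12944 rows compared were lower. The members' median log2 ratio was −0.22 (13.9% lower), against −0.04 for all rows. In Nfat5-KO cells 70 of 86 were lower in Nfat5-KO_600, against 52.9% of 12998 rows, with a median of −0.23 (14.8% lower) against −0.04. These ratios are log2 of FPKM + 0.1, for rows with at least 0.5 FPKM in 1 of the 2 groups. The comparisons share no library. Lower in both were 64 members (74.4%), against 41.5% of the 12512 rows compared in both, and 6 were higher in both, among them Ndufa6, Ndufb2 and Atp5s.

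The direction depended on scaling. The FPKM of all rows summed to 254204 in Scr_300, 232266 in Scr_600, 251423 in Nfat5-KO_300 and 212454 in Nfat5-KO_600. With equal sums per group, as in TPM, the members' median was −0.09 in Scr cells, with 58 of 86 lower, and turned to 0.01 in Nfat5-KO cells, with 41 of 86 lower. The all-row medians then moved to 0.09 and 0.20. As deposited, the members' median was below that of all rows in both genotypes. Equal sums shift all rows of a comparison by nearly the same amount, so they could hardly change this gap.

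Gene length went with the same values. Members are short: their median exon length was 1578 bases, against 4419 over 10918 expressed protein-coding rows. Other protein-coding genes were split at 2 kb, counting those that averaged 5 FPKM or more. The shorter ones had hypertonic medians of −0.16 in Scr (n = 909) and −0.28 in Nfat5-KO cells (n = 904), while the longer ones had −0.04 and −0.07. The 50 short members stood at −0.20 and −0.22, so the gap to other short genes was −0.04 in Scr cells and 0.06, the opposite way, in Nfat5-KO cells. The 33 long members stood at −0.27 and −0.26, below other long genes in both genotypes. Lengths over 2 kb were not matched: other genes of 2 to 3 kb had −0.08 and −0.20, and those of 3 to 5 kb −0.05 and −0.11. The gap to these was smaller. Within the members the log2 ratio went with exon length at a Spearman's rho of −0.05 and −0.12 (n = 85). The part of length in the lower values was not tested.

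**Figure D2:**
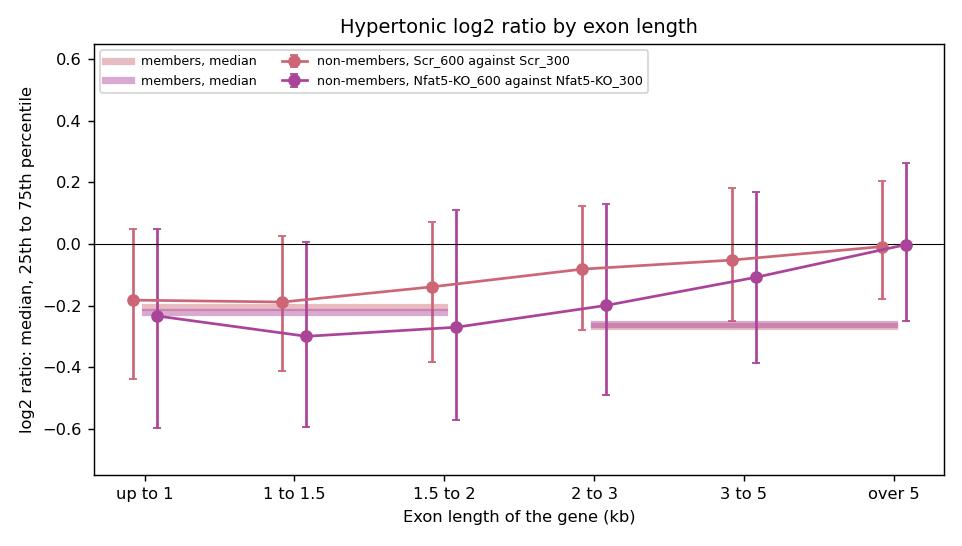
Median log2 ratio of 600 against 300 mosmol/kg (bars, 25th to 75th percentile) for protein-coding genes that are no members, by exon length in kb, with thick lines for the medians of members up to 2 kb and over 2 kb. Other genes over 5 kb lie near 0 in both genotypes and those under 2 kb lie lower, whereas members of both lengths lie between −0.20 and −0.27. On equal FPKM sums all values shift upwards by 0.13 (Scr) or 0.24 (Nfat5-KO).

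Members that moved far were few. At least 1.5-fold lower in Scr_600 than in Scr_300 were 4 of 86 members (9.02% of all rows), and 0 were at least 1.5-fold higher (10.4% of all rows). In Nfat5-KO cells 3 were at least 1.5-fold lower (13.8% of all rows) and 1, Ndufb2, was higher (14.1% of all rows). Low genes fill much of these backgrounds. Of rows that averaged 5 FPKM or more, 5.99% were lower and 6.17% higher by that much in Scr cells, and 13.9% and 7.03% in Nfat5-KO cells. The middle 50% of the members spanned 0.27 log2 units in Scr cells against 0.30 for Nfat5-KO cells. Short members spanned 0.22 and 0.27, whereas other short genes spanned 0.46 and 0.66. The levels of these short genes were not matched to those of the members.

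Complex I takes electrons from NADH, through 7 nuclear core subunits and a larger number of accessory ones. Its median hypertonic log2 ratio was −0.15 in Scr cells (29 of 37 lower) and −0.17 in Nfat5-KO cells (28 of 37 lower), and on equal sums −0.02 and 0.07. The core subunits had medians of −0.14 and −0.17, the accessory subunits −0.18 and −0.19. Of the core, Ndufv2, an iron-sulfur subunit of the NADH-binding arm, was lowest in Scr cells, at 51.4, 35.8, 46.0 and 34.6 FPKM in Scr_300, Scr_600, Nfat5-KO_300 and Nfat5-KO_600. Ndufc2, an accessory subunit of the membrane arm, had the lowest complex I ratio in Scr cells, −0.62, with 49.2, 32.0, 39.5 and 27.8 FPKM. Both were thus lower at 600 in both genotypes. Ndufa5, of the peripheral arm, had the lowest in Nfat5-KO cells, −0.64, with 43.5, 35.4, 58.6 and 37.5 FPKM, its Nfat5-KO_300 value being the high one.

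Ndufa6 went the other way. This LYR-motif accessory subunit, which binds the acyl carrier protein, was at 40.4 FPKM in Scr_300, 59.8 in Scr_600, 29.4 in Nfat5-KO_300 and 39.1 in Nfat5-KO_600. Its log2 ratio at 600 was 0.56 in Scr and 0.41 in Nfat5-KO cells, the highest of complex I members with at least 5 FPKM in both. The gene lies on chromosome 15 from 82350140 to 82354322, minus strand (GRCm38, GENCODE M21), and shares no exon base with another gene. Of the assembly factors, which build complex I but are not in it, 7 of 8 were lower in each genotype, with medians of −0.24 and −0.30, or −0.11 and −0.06 on equal sums. Ndufaf4 was the lowest in both at −0.53 and −0.47, from 7.64 to 5.28 FPKM and from 7.69 to 5.53. Ndufaf1 stood apart in Nfat5-KO cells at 0.37, from 14.7 to 19.0 FPKM, and was 19.8 and 19.6 in Scr cells.

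Complex II oxidises succinate and is also an enzyme of the citric acid cycle. Its hypertonic medians were −0.21 in Scr (4 of 4 lower) and −0.07 in Nfat5-KO cells (2 of 4 lower), or −0.08 and 0.17 on equal sums. Sdhc, a membrane anchor, was at 23.6, 13.8, 18.3 and 12.6 FPKM in Scr_300, Scr_600, Nfat5-KO_300 and Nfat5-KO_600, log2 ratios of −0.76 and −0.53 at 600. Sdhd, the other anchor, was at 95.3, 78.9, 72.3 and 62.4 FPKM. The catalytic subunits moved little in Scr cells: Sdha, the flavoprotein, was at 51.6 and 51.5 FPKM, and Sdhb, the iron-sulfur subunit, at 38.7 and 35.1. In Nfat5-KO cells both were higher at 600, Sdha at 44.9 and 52.6 FPKM, Sdhb at 34.1 and 35.9. As deposited, both anchors were thus lower at 600 in both genotypes and Sdhb in Scr cells alone, while Sdha was level in Scr cells. The Scr ratios of Sdha and Sdhb were −0.001 and −0.14, and equal sums shift Scr values upwards by 0.13. The Nfat5-KO ratio of Sdhd was −0.21, within the 0.24 by which equal sums shift Nfat5-KO values upwards.

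Complex III, which passes electrons from ubiquinol to cytochrome c, was lower at 600 for 9 of 9 genes in both genotypes, with medians of −0.19 and −0.24, or −0.06 and −0.002 on equal sums. Uqcrb, a small subunit, had the lowest value in Scr cells, −0.49, at 80.9 and 57.8 FPKM, and Uqcrq in Nfat5-KO cells, −0.50, at 56.9 and 40.1 FPKM. Uqcr10 was nearest to 0 in both, at 149, 148, 127 and 123 FPKM. Cyc1, cytochrome c1, was at 111, 105, 106 and 85.4 FPKM and Uqcrfs1, the Rieske protein, at 106, 101, 98.0 and 82.3 FPKM. For both, Nfat5-KO_600 was the low group.

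In complex IV, where oxygen is reduced, 10 of 12 compared genes were lower in Scr_600 and 9 of 12 in Nfat5-KO_600, with medians of −0.23 and −0.14, or −0.10 and 0.11 on equal sums. Cox7c had the lowest ratios of genes with at least 5 FPKM, −0.55 and −0.34, at 141, 96.2, 106 and 83.5 FPKM in Scr_300, Scr_600, Nfat5-KO_300 and Nfat5-KO_600. Cox6a1, the liver form of subunit VIa, stayed at 406, 409, 463 and 485 FPKM. Cox7a2l, which takes part in supercomplex assembly, was at 208, 178, 132 and 154 FPKM, lower at 600 in Scr cells and higher in Nfat5-KO cells. Cox7a1 was at 2.34, 1.20, 2.77 and 3.38 FPKM, which gave log2 ratios of −0.90 in Scr and 0.28 in Nfat5-KO cells. Its direction thus differed between genotypes, at a level where the pseudocount changes the ratio.

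Complex V makes ATP. Lower at 600 were 15 of 16 compared genes in both genotypes, with medians of −0.27 and −0.27, or −0.14 and −0.03 on equal sums. Atp5f1, subunit b of the peripheral stalk, had the lowest ratio in Scr cells, −0.80, at 362 and 208 FPKM, and −0.55 in Nfat5-KO cells, at 404 and 276. Atp5k, subunit e, had the lowest in Nfat5-KO cells, −0.79, at 156 and 90.3 FPKM, and −0.54 in Scr cells, at 119 and 81.9. Both genes were thus among the lowest in each genotype. Subunit c has 3 genes with 1 mature product: Atp5g1 was at 22.7, 18.3, 23.3 and 16.2 FPKM, Atp5g2 at 114, 92.3, 90.9 and 57.8, and Atp5g3 at 83.5, 75.04, 85.3 and 58.0 in Scr_300, Scr_600, Nfat5-KO_300 and Nfat5-KO_600. All 3 were lowest in Nfat5-KO_600. The single exception to the direction was Atp5s, a coupling factor not counted among the core subunits of the enzyme, at 9.21, 10.4, 10.3 and 14.2 FPKM.

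**Figure D3:**
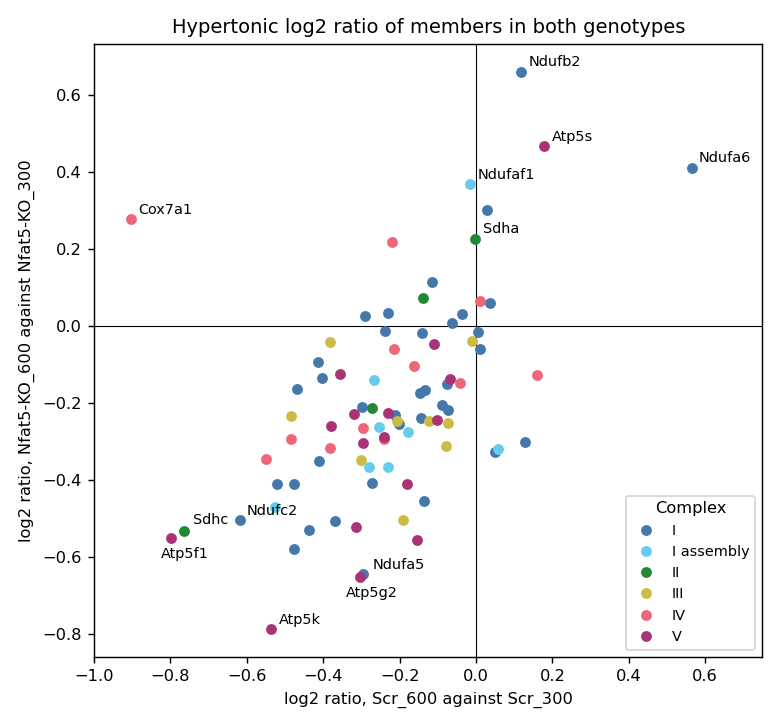
Log2 ratio of FPKM + 0.1 at 600 against 300 mosmol/kg, Scr cells on the horizontal and Nfat5-KO cells on the vertical axis, 1 point per member, coloured by complex. The lower left field holds 64 of 86 members, Ndufa6 stands highest in Scr cells and Cox7a1 lies on opposite sides of 0. On equal FPKM sums the points shift by 0.13 to the right and 0.24 upwards, and 41 of 86 members are then below 0 in Nfat5-KO cells.

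Comparing genotypes as deposited, complexes I to IV had lower medians in Nfat5-KO cells and complex V did not, though at 600 mosmol/kg complex II turned on equal sums and complex V turned among short genes alone. At 300 mosmol/kg 56 of 86 members were lower in Nfat5-KO_300 than in Scr_300, against 50.2% of 12720 rows, with a median log2 ratio of −0.12 (7.90% lower) against −0.002 for all rows. On equal sums the median was −0.10. At 600 mosmol/kg the Nfat5-KO_600 value was under that of Scr_600 for 59 of 86, against 52.2% of 13077 rows, with a median of −0.13 (8.72% lower) against −0.02. On equal sums it was −0.004, with 44 of 86 lower, against 0.11 for all rows. Other short genes had medians of −0.03 at 300 (n = 903) and −0.15 at 600 (n = 905), and short members −0.16 at both, so the gap to other short genes was −0.14 at 300 and −0.01 at 600. Lower at both osmolalities were 46 of 86 members (53.5%, against 33.6% of 12367 rows) and higher at both were 17. Epithelial markers summed to 1571 FPKM in Scr_300, 1418 in Scr_600, 1443 in Nfat5-KO_300 and 1135 in Nfat5-KO_600, and principal cell markers to 10.1, 9.64, 20.7 and 47.0, most of the last from Gata3. The part of cell state in the genotype difference was not tested.

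By complex, the median log2 ratios of Nfat5-KO against Scr cells at 300 and 600 mosmol/kg were −0.17 and −0.13 for complex I, −0.28 and −0.05 for complex II, −0.12 and −0.23 for complex III and −0.18 and −0.18 for complex IV. On equal sums the values at 600 were −0.003, 0.08, −0.10 and −0.05, so that of complex II turned. The assembly factors were near 0 at −0.03 and −0.05, the latter turning to 0.08 on equal sums. The complex V median was at 0.05 and 0.11, with 9 of 16 genes higher and 4 lower at both osmolalities, but its 6 genes of at most 2 kb had medians of −0.03 and −0.05, with 3 of 6 lower at each. Its summed FPKM was 2027 in Scr_300, 1678 in Scr_600, 2045 in Nfat5-KO_300 and 1617 in Nfat5-KO_600. In complex IV 10 of 12 genes were lower at both, and in complex III 9 of 9 were lower at 300 and 7 of 9 at 600.

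At least 1.5-fold lower in Nfat5-KO_300 were Ndufa12, Cox7a2l and Ndufv3, 3 of 86 members (6.21% of all rows), and 0 were at least 1.5-fold higher (5.28% of all rows). Of rows that averaged 5 FPKM or more, 2.29% were lower and 2.88% higher by that much. Ndufa12, an accessory subunit at the peripheral arm, was at 36.4 FPKM in Scr_300, 27.5 in Scr_600, 21.2 in Nfat5-KO_300 and 19.3 in Nfat5-KO_600, log2 ratios of −0.78 and −0.51, with both knockout values below both Scr values. Ndufv3 was at 21.5, 16.1, 14.2 and 13.3 FPKM and showed the same order. At 600 mosmol/kg 2 of 86 were at least 1.5-fold lower (9.44% of all rows), Atp5g2 at a log2 ratio of −0.67 and Ndufa6 at −0.61. Only Cox7a1 was higher by that much (9.83% of all rows), at 1.42. Of rows that averaged 5 FPKM or more, a level that Cox7a1 did not reach, 6.80% were lower and 4.79% higher at 600.

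Several members kept both knockout values under both Scr values without passing 1.5-fold. Ndufs8, an iron-sulfur core subunit, was at 116, 101, 81.6 and 68.4 FPKM in Scr_300, Scr_600, Nfat5-KO_300 and Nfat5-KO_600. Ndufa13 was at 58.0, 59.5, 44.0 and 45.9 FPKM and Ndufa7 at 62.4, 60.9, 42.4 and 43.4 FPKM, so neither moved much with osmolality. Sdhd and Atp5b had the same order, Atp5b at 458, 437, 381 and 347 FPKM. In Ndufa13, 30.0% of exon bases are shared with Tssk6, and reads over these bases cannot be assigned with certainty. In the other direction, Ndufa4 was at 103, 88.8, 124 and 106 FPKM. It is now assigned to complex IV but was counted here with complex I, by its name. Atp5c1, the rotor subunit gamma, was at 129, 110, 142 and 121, and the expressed Atp5o row, subunit OSCP, at 36.4, 29.6, 43.9 and 35.6. These 3 were higher in Nfat5-KO than in Scr cells at each osmolality.

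Other genes at the ends of their complex differed between the osmolalities. Uqcrh, the hinge protein of complex III, was at 72.7, 55.7, 58.6 and 56.9 FPKM in Scr_300, Scr_600, Nfat5-KO_300 and Nfat5-KO_600, the lowest genotype ratio of its complex at 300 (−0.31) and the highest at 600 (0.03). Cox5a, a subunit of complex IV, was at 30.3, 33.9, 29.0 and 26.6 FPKM, a genotype ratio of −0.06 at 300 and −0.35 at 600. Ndufaf8 was at 20.1, 20.97, 20.9 and 16.7 FPKM, so Nfat5-KO_600 was the low group. Ndufaf7 had the highest genotype ratio of the assembly factors at 300, 0.08, and Ndufb4 the highest of complex I at 600 among genes with at least 5 FPKM, 0.26, at 17.5, 13.2, 20.2 and 15.8 FPKM.

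**Figure D4:**
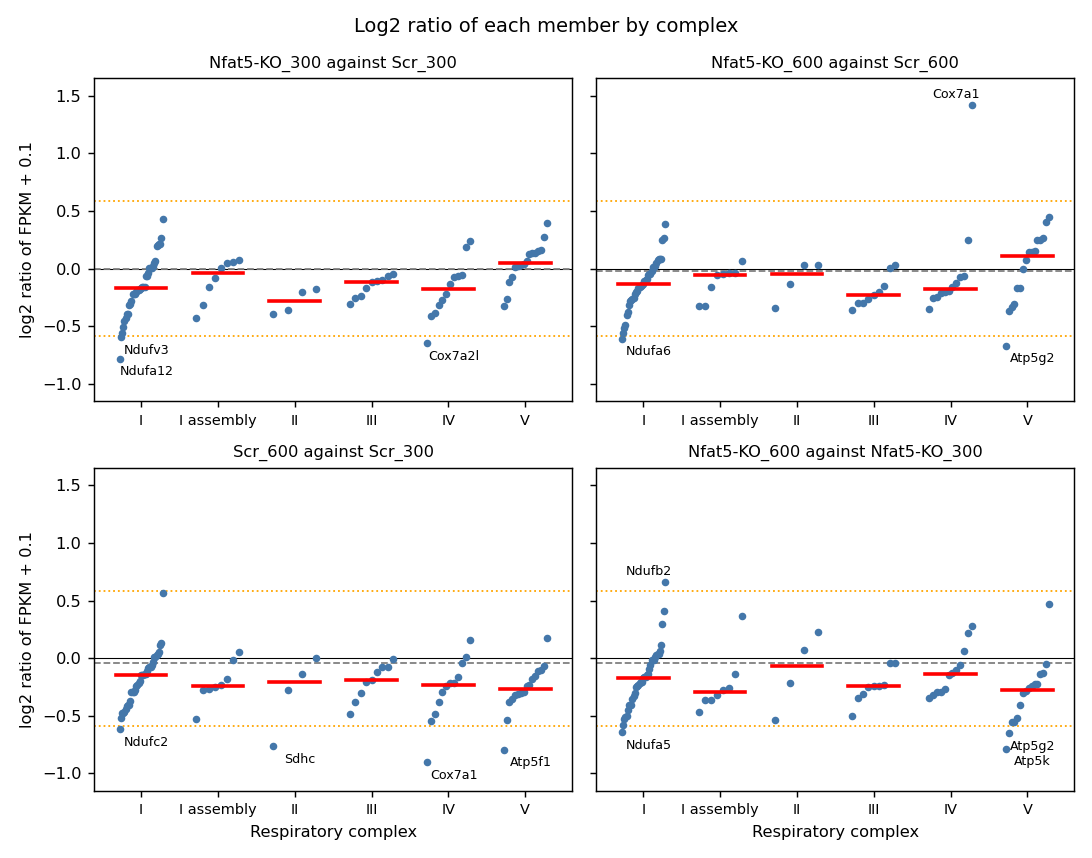
Log2 ratio of FPKM + 0.1 for each member by complex in the 4 comparisons, with red bars for medians, a dashed line for the median of all rows and dotted lines at 1.5-fold. The median of complex V lies above 0 between genotypes (below 0 among its short genes alone) and below 0 between osmolalities, and 12 genes in all are named past the dotted lines. On equal FPKM sums the Nfat5-KO_600 against Nfat5-KO_300 panel shifts upwards by 0.24 and its median over all members turns to 0.01.

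The neighbouring pathways were read from lists of known genes. Of the 13 protein-coding genes of mitochondrial DNA, 9 were lower in Scr_600 than in Scr_300 (median −0.12), 10 in Nfat5-KO_600 than in Nfat5-KO_300 (−0.11), 10 in Nfat5-KO_300 than in Scr_300 (−0.23) and 11 in Nfat5-KO_600 than in Scr_600 (−0.24). mt-Co1, the catalytic subunit of complex IV, was at 2583, 2561, 1974 and 2184 FPKM, so as deposited the genotypes were further apart than the osmolalities. Its genotype log2 ratios were −0.39 at 300 and −0.23 at 600, its hypertonic ones −0.01 in Scr and 0.15 in Nfat5-KO cells. On equal sums the genotype ratio at 600 shifts upwards by 0.13 and the Nfat5-KO hypertonic ratio by 0.24, so this order does not hold throughout. Values of mitochondrial transcripts in a poly-A library can depend on their tails and on nuclear copies. Of 18 genes of the citric acid cycle and pyruvate dehydrogenase, 14 and 16 were lower at 600 in Scr and Nfat5-KO cells (medians −0.20 and −0.31), and 12 and 16 were lower in Nfat5-KO cells at 300 and 600 mosmol/kg (−0.11 and −0.22). Cs, citrate synthase, was at 78.8, 69.9, 74.3 and 53.6 FPKM in Scr_300, Scr_600, Nfat5-KO_300 and Nfat5-KO_600.

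Of 18 compared genes for electron carriers and coenzyme Q synthesis, 13 were lower at 600 in each genotype, with medians of −0.27 in Scr and −0.40 in Nfat5-KO cells. Coq3, a methyltransferase of coenzyme Q synthesis, was at 4.09, 1.55, 3.79 and 1.19 FPKM, log2 ratios of −1.34 and −1.59, further than any member. Cycs, somatic cytochrome c, was at 28.6, 23.6, 32.2 and 22.8 FPKM. Between genotypes 7 of the 18 were lower at 300 and 10 at 600 (medians 0.13 and −0.04). Of 38 compared assembly factors with other names, 24 and 29 were lower at 600 (−0.10 and −0.15), and 15 and 25 were lower in Nfat5-KO cells (0.03 and −0.10). Coa3, a complex IV factor, was higher at 600, at 120, 157, 102 and 134 FPKM.

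Of 13 compared regulators of mitochondrial biogenesis, 9 were lower at 600 in each genotype (medians −0.20 and −0.25). Between genotypes 6 of 13 were lower at 300 (46.2%, median 0.03) and 7 of 12 at 600 (58.3%, median −0.10), against 50.2% and 52.2% of all rows. The coactivator Ppargc1a was near absent, at 0.0188 FPKM or less. Nrf1 was at 4.72, 4.77, 4.85 and 3.99 FPKM, Gabpa at 17.1, 13.1, 17.8 and 14.1, and Yy1 at 27.2, 26.8, 31.0 and 38.8. As deposited, of these 3 Gabpa alone was lower at 600 in both genotypes, at log2 ratios of −0.38 and −0.33. On equal sums the ratios of Gabpa shift upwards by 0.13 and 0.24. Tfam, which packages and transcribes mitochondrial DNA, was at 21.8, 16.1, 19.4 and 16.7 FPKM, and Tfb1m at 3.01, 1.61, 2.31 and 1.23. All medians of these lists at 600 against 300 shift upwards by 0.13 (Scr) and 0.24 (Nfat5-KO) on equal FPKM sums, as the members' do. In Scr cells that exceeds the distance from 0 of −0.12 for the mitochondrial genome and −0.10 for the other assembly factors. For Nfat5-KO cells it exceeds that of −0.11 and −0.15 for the same lists. The lists' medians of Nfat5-KO_600 against Scr_600 shift upwards by 0.13 as well. That is more than the distance from 0 of −0.10 for the other assembly factors and −0.04 for carriers and coenzyme Q. It also exceeds that of −0.10 for the regulators.

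**Figure D5:**
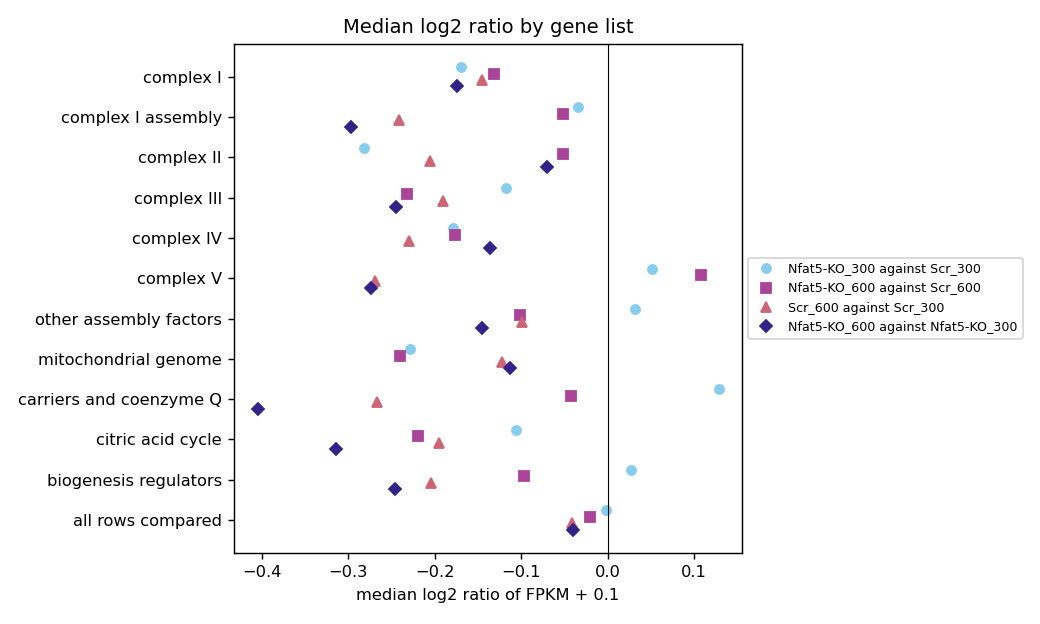
Median log2 ratio of FPKM + 0.1 for the complexes, 5 related gene lists and all rows compared, with 1 symbol per comparison. The hypertonic medians (triangles and diamonds) of all lists lie left of those of all rows, and complex V is the one complex to the right of 0 between genotypes, though not among its short genes alone. On equal FPKM sums the diamonds shift by 0.24 to the right. The triangles and the squares (Nfat5-KO_600 against Scr_600) shift by 0.13 to the right. This takes some diamonds, some squares and some triangles past 0, the triangles being those of the other assembly factors, the mitochondrial genome and all rows.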

How the data were processed

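RNA of 12 mpkCCD libraries was sequenced by the authors. Per the labels and methods, poly-A RNA was made into paired-end NEBNext Ultra libraries, reads with adapters or low quality were removed, HISAT2 aligned reads to mm10 and HTSeq counted them; versions, annotation release, gene lengths and strand setting are not given in the sources used here. The deposited table holds FPKM, made by the authors, 1 value per group; how libraries were combined is not stated. It had 54839 rows. Rows without a value (2436) and exact duplicates (311) were removed, leaving 52092.

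Log2 ratios of FPKM + 0.1 were computed for rows with at least 0.5 FPKM in 1 of the 2 groups, in 4 comparisons, and no test was run. Symbols were placed with GENCODE M21 (92 of 93 members with 1 gene). Exon length is the union of annotated exons. The members and lists were chosen with earlier results of these data known. The genes named were the highest and lowest of each complex and comparison with at least 5 FPKM in both groups, members at least 1.5-fold apart with at least 1 FPKM in both, complex II, the highest gene of each complex, isoform pairs and members under 0.5 FPKM; Ndufb2, Ndufs8, Ndufa7, Ndufa13, Ndufv2, Uqcrfs1, Cyc1, Atp5g1, Atp5g3, Atp5l, Ndufab1, Atp5c1, Atp5o and the genes of other lists were added after their values were seen. The values of a gene that would also be named are not reported here. Alternatives were other pseudocounts, filters, scalings and fold limits and, added after seeing the data, short genes and members with little exon overlap. Python 3.11.15, numpy 2.4.6, pandas 2.3.3 and matplotlib 3.10.9 were used, and the ratio step was tested on simulated data.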

Additional observations from a re-analysis of the deposited data

How the results depend on the processing

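Without values per library, no spread, interval or test could be had, and no replicate could be left out. No paired analysis was possible because the deposited values hold 1 value per group. A median was counted as moved where it shifted by over 0.1 log2 units, and a count or share where it differed by over 1.5 times. On equal FPKM sums the members' median was −0.0865 for Scr_600 against Scr_300, −0.00374 for Nfat5-KO_600 against Scr_600 and turned to 0.0118 for Nfat5-KO_600 against Nfat5-KO_300, with 47.7% of members lower; at least 1.5-fold lower were then 0 in both comparisons of Nfat5-KO_600, and at least 1.5-fold higher were 4 against Nfat5-KO_300 and 1 in Scr_600. With median-of-ratios factors 5 were at least 1.5-fold lower in Nfat5-KO_600 against Nfat5-KO_300 (15.2% of all rows). Among short genes alone the members' gap to other genes was −0.0446 (Scr_600 against Scr_300) and −0.00949 (Nfat5-KO_600 against Scr_600). It was 0.0600, the opposite sign, for Nfat5-KO_600 against Nfat5-KO_300. Of short members 1 was at least 1.5-fold lower in Scr_600 (12.7% of other short genes). At least 1.5-fold higher were 0 in both comparisons of Nfat5-KO_600 (5.97% of other short genes against Scr_600, 8.08% against Nfat5-KO_300). At a limit of 0.32 log2 units, 15 were lower and 2 higher in Nfat5-KO_300 against Scr_300 (15.4% and 15.8% of all rows). In Nfat5-KO_600 against Scr_600 14 and 4 were so (20.9% and 20.5% of all rows). The counts were 22 and 1 in Scr_600 against Scr_300 (22.1% and 19.7% of all rows). They were 24 and 4 in Nfat5-KO_600 against Nfat5-KO_300 (28.5% and 25.5% of all rows). At 2-fold, 0 were lower in each of the 4 comparisons (2.44% to 4.12% of all rows). By that limit 0 were higher in Nfat5-KO_600 against Nfat5-KO_300 (6.25% of all rows). The count at least 1.5-fold higher in Nfat5-KO_600 was 0 against both groups with a mean of at least 5 FPKM, 0 against Nfat5-KO_300 with a pseudocount of 1, and without a filter 2 against Nfat5-KO_300 and 3 against Scr_600. Of the medians, shares and counts over all members recomputed under the alternatives, 163 stayed, 31 moved and 2 turned. With members of under 10% shared exon bases alone, the 4 medians of members kept their direction and moved by under 0.1.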
